A study of Mus musculus with 2 samples.

Results

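The matrix genes Col1a1, Col1a2, Col3a1, Col5a1, Lum, Vcan, Fn1, Fbn1 and Postn were followed across the cell classes of the mouse yolk sac by single-cell RNA sequencing at E8.75, a stage soon after gastrulation. They were chosen by name as genes of fibrillar collagen and interstitial matrix, with earlier results of these data known. They are 9 of 30970 gene rows. The study asked how yolk sac cell types that carry primary cilia differ in their transcripts from visceral endoderm, which does not. All yolk sacs carried 1 genotype, Ttr-Cre/+; R26lsl-rtTA-EGFP/+, in which Ttr regulatory sequence drives Cre in the visceral endoderm lineage and Cre switches on rtTA and EGFP, so there was no treated or mutant group. Cells of 3 samples were tagged with CellPlex oligonucleotides, pooled and sequenced together, and they are called tagged samples 1, 2 and 3. Every comparison below is between cell classes of the same tagged samples.

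Fibrillar collagens are secreted as procollagen triple helices, trimmed outside the cell and assembled into fibrils that give connective tissue its tensile strength. Fibronectin, fibrillin and proteoglycans form the surrounding network to which cells attach through integrins. In the yolk sac this interstitial matrix lies between the endoderm epithelium and the mesoderm, the layer in which blood vessels and primitive blood form.

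Only cells with 500 or more genes, and no more than 10% of their unique molecular identifiers (UMIs, the molecule counts) from mitochondrial genes, were put in classes by the share of their UMIs from a few genes. The endoderm class had at least 0.3% of Ttr, Apob and Apom, and the erythroid class at least 3% of 7 globin genes. The endothelium class had at least 0.04% of Cdh5, Ctla2a and Plvap, and the mesoderm class at least 0.05% of Hand1, Foxf1 and Pmp22. Mesoderm-gate cells with 5 or more UMIs of Ttn, Myh6 and Tnnt2 were kept apart as the contractile class. Cells in more than 1 class were dropped. None of the 9 genes was used in a gate. The classes held 560 endoderm, 149 mesoderm, 39 contractile, 113 endothelium and 630 erythroid cells.

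The tagged samples held 460, 651 and 706 cells with 22007477 to 33114758 gene UMIs, and no barcode was shared between them. Each tagged sample had cells with at least 4 Xist UMIs (and at most 1 Y-linked UMI) and cells with at least 2 Y-linked UMIs (and at most 1 of Xist), at 190 and 151, 263 and 180, and 221 and 350 cells, although the design text names 3 embryos. The number of embryos behind each tag is therefore not settled, and p-values measure only the spread between the tagged samples. All 8 visceral endoderm, 6 erythroid and 7 endothelial check markers were highest in their own class. Of 7 mesoderm check markers, 5 were highest in the contractile class, Pdgfra in the endoderm class and Twist1 in the endothelium class, so the mesoderm and contractile classes are meant here by their gates. The summed level of the 7 markers was 310 to 340 UMIs per 1000000 in the mesoderm class, 390 to 446 in the contractile class and 46.4 to 52.9 in the endoderm class. Of 6 contractile check markers, 4 (Myl7, Actc1, Tnni1 and Myl4) were highest in the contractile class and Acta2 in the mesoderm class. Nkx2-5, a heart transcription factor, was highest in the endothelium class and was listed at 0 in the contractile, mesoderm and erythroid classes.

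In GRCm38 coordinates of GENCODE M21, Col1a1 lies at chr11:94936224-94953042 on the plus strand, Col1a2 at chr6:4504814-4541544 (plus), Col3a1 at chr1:45311538-45349706 (plus) and Col5a1 at chr2:27886425-28039514 (plus). Lum lies at chr10:97565128-97572703 (plus), Vcan at chr13:89655312-89742509 (minus), Fn1 at chr1:71585520-71653200 (minus), Fbn1 at chr2:125300594-125507993 (minus) and Postn at chr3:54361109-54391037 (plus). All 9 are annotated as protein coding.

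Because most of these genes were high in the same classes, the sequence before their start sites was compared. The RefSeq promoter table of GRCm38.p6 held 6 of the 9 members with 7 start sites, and Col1a1, Lum and Fn1 had no entry. In the 250 bases before the start site, searched on both strands, the CCAAT box (CCAAT) was found for Col1a2 and Vcan, and 33.9% of 32851 promoter windows of that length held one. The TATA box letters (TATAAA) were found for Col3a1 and for 1 of the 2 Postn start sites, against 12.4% of windows. The GC box letters (GGGCGG) were found for Col1a2, Col5a1, Vcan and Fbn1, against 32.7% of windows. None of the 3 motifs was in all 6 members, and none overlapped another. The windows of Vcan, Col3a1 and Postn are shown 5′ to 3′ on the gene's strand, as the member with the largest difference between mesoderm and endoderm and 2 with TATA letters, with CCAAT or TATAAA, on either strand, in capitals.
Vcan, chr13:89742513-89742762, minus strand: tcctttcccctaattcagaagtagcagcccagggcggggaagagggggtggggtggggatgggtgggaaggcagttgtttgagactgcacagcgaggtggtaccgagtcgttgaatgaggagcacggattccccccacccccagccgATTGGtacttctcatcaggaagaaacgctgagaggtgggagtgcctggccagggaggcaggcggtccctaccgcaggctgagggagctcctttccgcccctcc
Col3a1, chr1:45311288-45311537, plus strand: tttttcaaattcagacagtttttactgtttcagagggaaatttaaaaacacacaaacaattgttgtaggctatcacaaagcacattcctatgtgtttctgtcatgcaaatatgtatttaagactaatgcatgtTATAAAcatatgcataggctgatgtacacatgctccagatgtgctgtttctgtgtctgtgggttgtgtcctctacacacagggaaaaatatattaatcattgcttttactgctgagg
Postn, second start site, chr3:54360857-54361106, plus strand: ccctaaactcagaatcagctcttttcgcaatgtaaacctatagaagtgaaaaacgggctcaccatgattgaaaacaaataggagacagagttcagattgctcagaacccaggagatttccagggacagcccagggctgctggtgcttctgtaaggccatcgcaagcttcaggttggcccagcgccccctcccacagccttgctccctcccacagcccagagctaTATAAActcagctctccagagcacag
In Vcan the box is on the opposite strand, between 103 and 99 bases before the start. In Postn the TATA letters lie 26 to 21 bases before the start, and in Col3a1 117 to 112 bases before it. The windows of Col1a2 and Fbn1 overlapped exons of GENCODE M21 by 127 and 250 bases and are not shown.

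Levels are UMIs of a gene per 1000000 UMIs (CPM), with UMIs summed over the cells of a class in 1 tagged sample, given in the order of tagged samples 1, 2 and 3. They are compared within a gene between classes and not between genes. All 9 members had their highest mean level in the mesoderm or the contractile class. Col1a1, Col1a2, Col3a1, Lum, Vcan and Postn were highest in the mesoderm class, and Col5a1, Fn1 and Fbn1 in the contractile class. In the plot of levels by class, no sample of the other 7 members exceeds 22.6 outside these classes, while Fn1 reaches 411 and Fbn1 44.6 in the endothelium class, and Fn1 162 in the endoderm class.

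**Figure D1:**
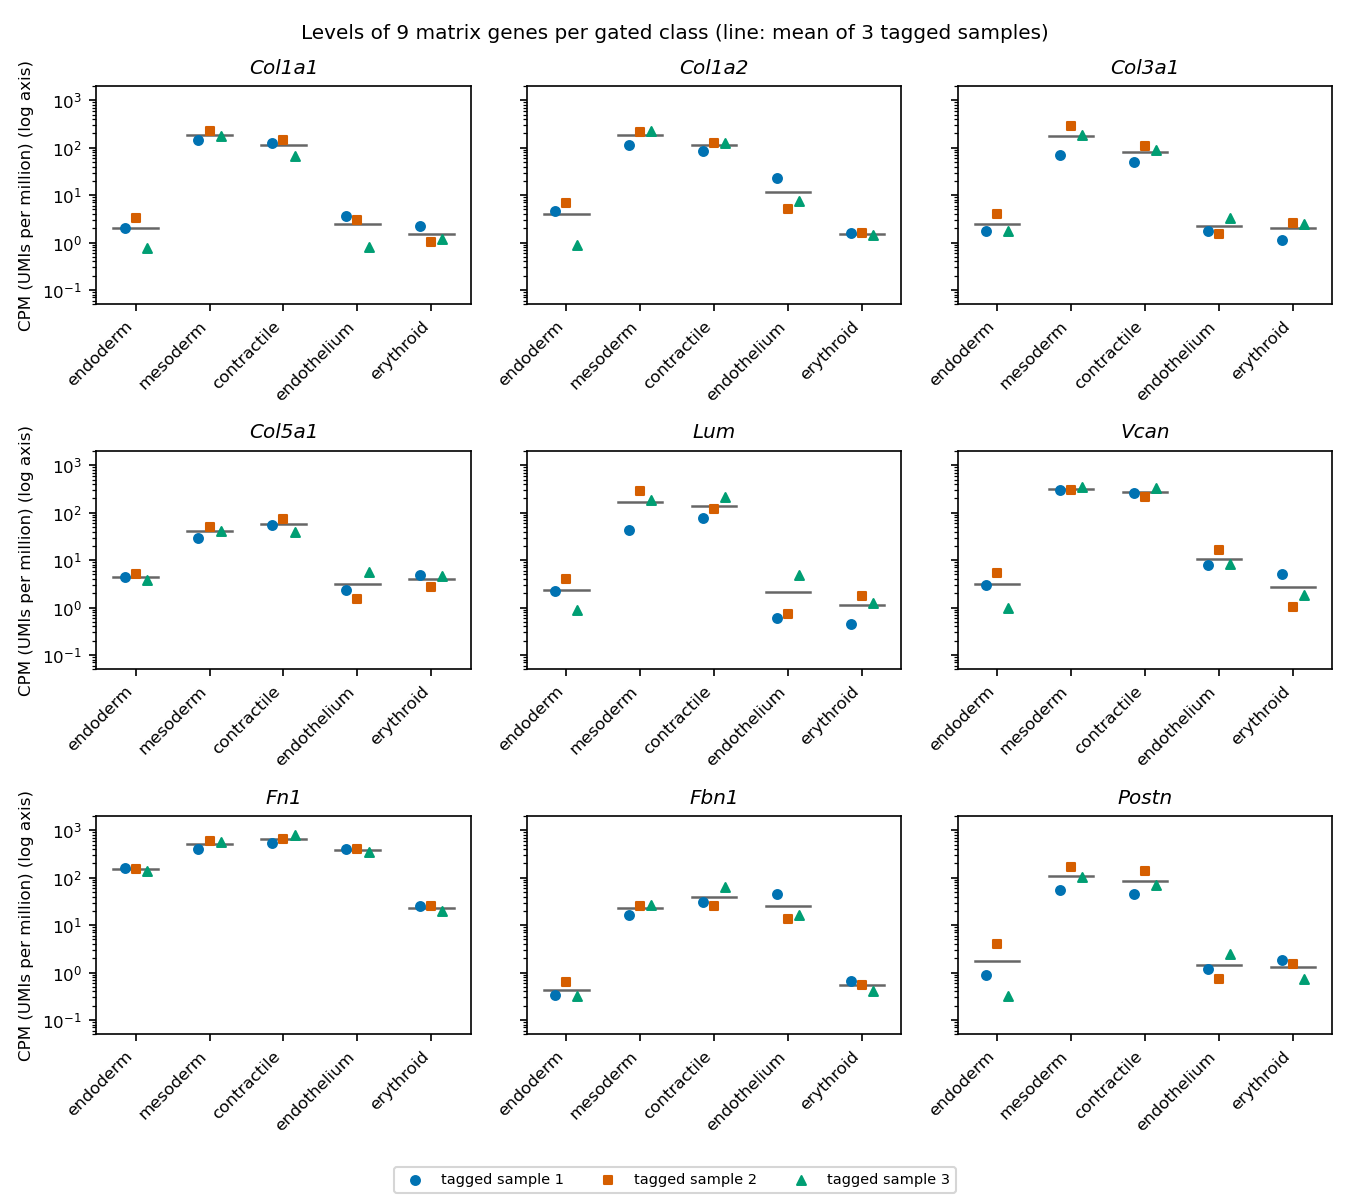
CPM on a log axis for each of the 9 genes (panels) in 5 cell classes, with 1 point per tagged sample and a line at the mean of 3. For Col1a1 the mesoderm class reads 148, 221 and 175 against 2.01, 3.37 and 0.763 in the endoderm class, whereas Fn1 reads 162, 153 and 137 in the endoderm class.

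Col1a1, which encodes the alpha 1 chain of type I collagen, had 148, 221 and 175 CPM in the mesoderm class and 125, 145 and 68.5 in the contractile class. It had 2.01, 3.37 and 0.763 in the endoderm class, 3.57, 2.99 and 0.819 in the endothelium class and 2.26, 1.03 and 1.19 in the erythroid class. The mesoderm samples lay above every sample of the other 4 classes, and the endoderm, endothelium and erythroid ranges overlapped. Between mesoderm and endoderm the log2 difference was 6.12 ± 0.28 (SE), with an adjusted p of 1.35e-09 in edgeR's quasi-likelihood test over all genes with Benjamini-Hochberg adjustment.

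Col1a2 encodes the alpha 2 chain that joins type I trimers. Its mesoderm levels were 115, 210 and 226 and its contractile levels 83.5, 128 and 126, so these ranges overlapped. Endothelium levels were 22.6, 5.22 and 7.37, endoderm levels 4.59, 6.73 and 0.872, and erythroid levels 1.58, 1.59 and 1.43. Tagged sample 1 was the high endothelium sample, tagged sample 2 fell within the endoderm range and tagged sample 3 lay above it. Mesoderm was higher than endoderm by 5.18 ± 0.37 (log2, SE; adjusted p = 9.48e-08, edgeR). The ratio of Col1a1 to Col1a2 UMIs in the mesoderm class was 1.28, 1.05 and 0.773, a spread of 0.256 (SD) around 1.04.

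Col3a1, the single chain of type III collagen, which forms fibrils together with type I, had mesoderm levels of 70.5, 285 and 184. Its contractile levels were 50.1, 107 and 90.7, and all samples of the other 3 classes lay between 1.13 and 3.98. The difference from endoderm was 5.85 ± 0.45 (log2, SE; adjusted p = 1.89e-07, edgeR). Tagged sample 1 was the lowest in both mesoderm-gate classes.

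Col5a1, a chain of the minor fibrillar type V collagen that nucleates fibrils and limits their width, had the smallest difference among the collagens. Its mesoderm levels were 29.9, 49.3 and 41.7 and its contractile levels 56.4, 74.6 and 38.9. The samples of the other classes lay between 1.49 and 5.74, and the endoderm and erythroid means of 4.40 ± 0.60 and 4.04 ± 1.15 (SD, n = 3) differed by less than either SD. Its log2 difference of mesoderm from endoderm was 2.97 ± 0.21 (SE; adjusted p = 8.79e-08, edgeR).

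Lum encodes lumican, a small leucine-rich proteoglycan that binds collagen fibrils. It was uneven between tagged samples, at 42.7, 284 and 187 in the mesoderm class and 77.3, 122 and 216 in the contractile class. In the other classes it lay between 0.452 and 4.92. Mesoderm was higher than endoderm by 5.85 ± 0.57 (log2, SE; adjusted p = 1.55e-06, edgeR).

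Vcan encodes versican, a large hyaluronan-binding proteoglycan. In the mesoderm class it had the smallest SD relative to its mean of the 9 members, at 301, 302 and 352, and it read 259, 210 and 335 in the contractile class. Endothelium levels of 7.73, 16.4 and 8.19 lay above endoderm levels of 3.02, 5.43 and 0.981 in every tagged sample. It was higher in mesoderm than in endoderm by 6.31 ± 0.27 (log2, SE; adjusted p = 1.03e-09, edgeR).

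Fn1, fibronectin, the glycoprotein that integrins assemble into fibrils, differed from the other members in being present in the endoderm class. Its levels were 399, 592 and 558 in the mesoderm class, 535, 644 and 803 in the contractile class and 411, 410 and 354 in the endothelium class. The endoderm levels were 162, 153 and 137, below every endothelium sample, and the erythroid levels 25.5, 24.8 and 19.5. Fn1 was higher in mesoderm than in endoderm by 1.56 ± 0.12 (log2, SE; adjusted p = 2.40e-07, edgeR), the smallest of the 9 differences.

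Fbn1, fibrillin-1, the main component of microfibrils, was low and not concentrated in the mesoderm class. Its levels were 16.4, 24.9 and 27.0 in the mesoderm class, 31.3, 24.9 and 62.9 in the contractile class, and 44.6, 13.4 and 16.4 in the endothelium class, and the 3 ranges overlapped. Endoderm and erythroid samples lay between 0.327 and 0.678. Mesoderm was higher than endoderm by 5.38 ± 0.34 (log2, SE; adjusted p = 2.64e-08, edgeR).

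Postn encodes periostin, a matricellular protein that binds collagen and fibronectin. Its mesoderm levels were 55.6, 171 and 103 and its contractile levels 46.0, 140 and 70.3, with tagged sample 2 the highest and tagged sample 1 the lowest in both. The samples of the other classes lay between 0.327 and 3.98. Mesoderm was higher than endoderm by 5.54 ± 0.50 (log2, SE; adjusted p = 7.87e-07, edgeR).

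Against endoderm, all 9 members passed the low-count filter and were called higher in mesoderm, where 29.4% of 10777 genes tested were called higher. The members' median log2 difference was 5.54, and that of all genes tested -0.03. Against erythroid cells, 9 of 9 were again called higher, where 35.6% of 9499 genes were, with differences from 2.94 ± 0.23 (SE) for Col5a1 to 6.83 ± 0.22 for Vcan, in the same test. The members' median was 6.18 and that of all genes -0.01. These comparisons share their mesoderm sums. The members were chosen with earlier results of these data known, so their counts are a description and not an independent test. Scaling by library size alone moved the median of all genes to 0.18 against endoderm and 0.40 against erythroid cells, and the share of calls that were higher from 47.9% to 60.9% and from 51.6% to 73.9%, with 9 members called higher in each.

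Against endothelium, 7 of 9 members were called higher in mesoderm, where 15.8% of 8585 genes were. The members' median difference was 4.80, and that of all genes 0.00. The 7 were the 4 collagens, Lum, Vcan and Postn, with differences from 3.59 ± 0.37 (log2, SE) for Col5a1 to 6.37 ± 0.79 for Lum. Scaling by library size alone moved the median of all genes to 0.10 and the higher share of calls from 45.4% to 55.9%, with 8 members called higher, Fn1 among them. Fn1 differed by 0.30 ± 0.13 and missed the threshold (adjusted p = 0.0797, edgeR). With the tagged sample as a block its difference was 0.28 (adjusted p = 0.037), and without tagged sample 1 it was 0.50 (adjusted p = 9.87e-05), in the same test. Fn1 also passed, making 8 members, without the low-count filter, with the contractile limit at 10 UMIs and after thinning. It passed too with other-cell markers left out of mesoderm, or with cells holding mesoderm gate genes left out of the other classes. It did not pass under the other alternatives. Leaving out cells with mesoderm gate genes kept 51 of 113 endothelium cells (17, 16 and 18 by tagged sample). It kept 549 of 560 endoderm and 625 of 630 erythroid cells. Whether the cells left out held carry-over from mesoderm was not tested. Fbn1 differed by -0.26 ± 0.36 (adjusted p = 0.626, edgeR), and without tagged sample 1 the sign turned, at 0.72 (adjusted p = 0.0642).

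**Figure D2:**
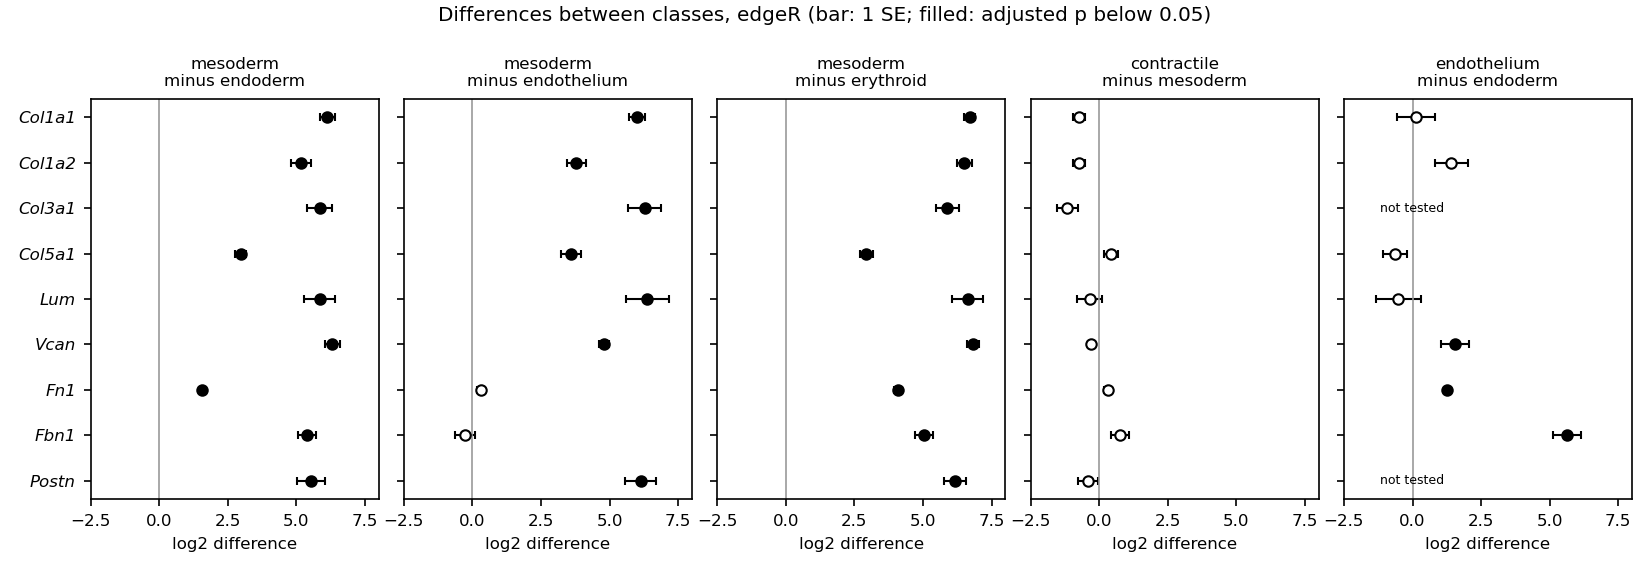
log2 difference with 1 SE for each member in 5 comparisons of classes (first class minus the named class), filled where the edgeR adjusted p is below 0.05. All 9 points are filled against endoderm and erythroid cells, 7 against endothelium, none between contractile and mesoderm classes, and 3 of 7 tested between endothelium and endoderm.

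Endothelium and endoderm were compared directly to ask whether a member was above its endoderm level in endothelium. Of 7 members that passed the filter (Col3a1 and Postn did not), 3 were called higher in endothelium, where 28.5% of 10673 genes were. Fbn1 differed by 5.64 ± 0.51 (log2, SE; adjusted p = 5.92e-07, edgeR) and Fn1 by 1.26 ± 0.09 (adjusted p = 7.14e-08). Vcan differed by 1.55 ± 0.52 (adjusted p = 0.021), and by 3.28 (adjusted p = 1.02e-05, edgeR) when Scrublet doublet calls were left out. Of the 45 endothelium Vcan UMIs, 17 were in 1 cell.

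Col1a2 differed between these classes by 1.42 ± 0.61 (log2, SE) and missed the threshold (adjusted p = 0.0616, edgeR). With the tagged sample as a block it passed, at 1.45 (adjusted p = 0.0122), as it did with Scrublet calls left out, at 2.75 (adjusted p = 0.000521, edgeR). Without tagged sample 1 it was 0.45 (adjusted p = 0.635). Of the contractile check markers in the endothelium class, Myl7 (55.3, 5.97 and 8.19 CPM) and Tnni1 (19.0, 5.22 and 6.55) were also highest in tagged sample 1. Acta2 (13.1, 25.4 and 33.6), Myl4 (6.54, 3.73 and 13.1) and Actc1 (0, 0 and 1.64) were highest in tagged sample 3. Nkx2-5 (0.594, 2.24 and 0) was highest in tagged sample 2. The part of contractile cells in the Col1a2 result was not tested. Fbn1 kept a difference of 4.70 without tagged sample 1 (adjusted p = 1.97e-07, edgeR).

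Cells of the mesoderm gate with 5 or more UMIs of Ttn, Myh6 and Tnnt2 and those with fewer were compared to see whether the members were shared by both. None of the 9 was called, where 0.271% of 7371 genes were called in either direction, 20 in all. At an unadjusted p under 0.05 there were 584 genes, and DESeq2 called 22 genes and none of the members. The members' median difference was -0.35 and that of all genes 0.00. Col1a1, Col1a2 and Col3a1 had differences of -0.73 ± 0.22, -0.74 ± 0.23 and -1.16 ± 0.39 (log2, SE), with adjusted p from 0.298 to 0.381 in edgeR. Fbn1, Col5a1 and Fn1 had differences of 0.76 ± 0.31, 0.44 ± 0.25 and 0.32 ± 0.15, with adjusted p from 0.562 to 0.72. With the tagged sample as a block, Col1a2 (-0.73, adjusted p = 0.0482) and Col3a1 (-1.10, adjusted p = 0.0144) were called lower in the contractile class, and without tagged sample 1 the same 2 genes were called, at -0.82 and -1.30 (adjusted p = 0.042 and 0.0243, edgeR). The contractile class had 11 to 14 cells per tagged sample, and 5 cells held 45.7% of its Col1a1 UMIs.

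The share of cells with a UMI was counted after each cell was thinned to 10000 UMIs, which left out 28 endoderm, 13 mesoderm, 0 contractile, 16 endothelium and 7 erythroid cells that were shallower. Erythroid cells served as the background of free RNA, since they are not known as makers of fibrillar collagen. In mesoderm, Vcan was found in 83.1% of 136 cells (exact 95% binomial interval 75.7 to 89.0%), Col1a2 in 69.9%, Col1a1 in 67.6%, Col3a1 and Lum in 62.5% each and Postn in 55.9%. In erythroid cells these 6 genes were found in 0.321 to 2.09% of 623 cells. Without thinning, Vcan was found in 88.6% of 149 mesoderm cells and 5.40% of 630 erythroid cells, with median depths of 34192 and 47772 UMIs.

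Fn1 was found in 89.7% of thinned mesoderm cells, 93.8% of endothelium, 75.8% of endoderm (interval 71.9 to 79.3%) and 17% of erythroid cells (14.1 to 20.2%). Fbn1 was found in 23.5% of mesoderm, 28.2% of contractile and 23.7% of endothelium cells, against 0.188% of endoderm and 0.161% of erythroid cells. Col5a1 was found in 40.4% of mesoderm cells. Its endoderm share of 4.51% (2.91 to 6.64%) and its erythroid share of 4.49% (3.01 to 6.43%) had overlapping intervals. This erythroid share was above those of Col1a1 (0.803%) and Vcan (2.09%), and whether it is free RNA was not tested. Col5a1 was in 0 of 97 thinned endothelium cells, which allows a share of up to 3.09% of cells with a UMI at that depth, and in 11 of 113 (9.73%) without thinning, so the 0 holds for that depth only. Col1a2 was in 9.28% of endothelium cells (4.33 to 16.9%), above its erythroid share of 0.963% (0.354 to 2.08%). By tagged sample the endothelium shares of Col1a2 were 9.09, 9.68 and 9.09%. Thinned to 20000 UMIs they were 28.1, 4.55 and 10.3%, and without thinning 51.4, 18.9 and 14.6%, highest in tagged sample 1 as was the level. Shares without thinning also depend on depth. The endothelium class held 1682737, 1340018 and 1220559 UMIs in 35, 37 and 41 cells of tagged samples 1, 2 and 3. Intervals cover counting error only.

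**Figure D3:**
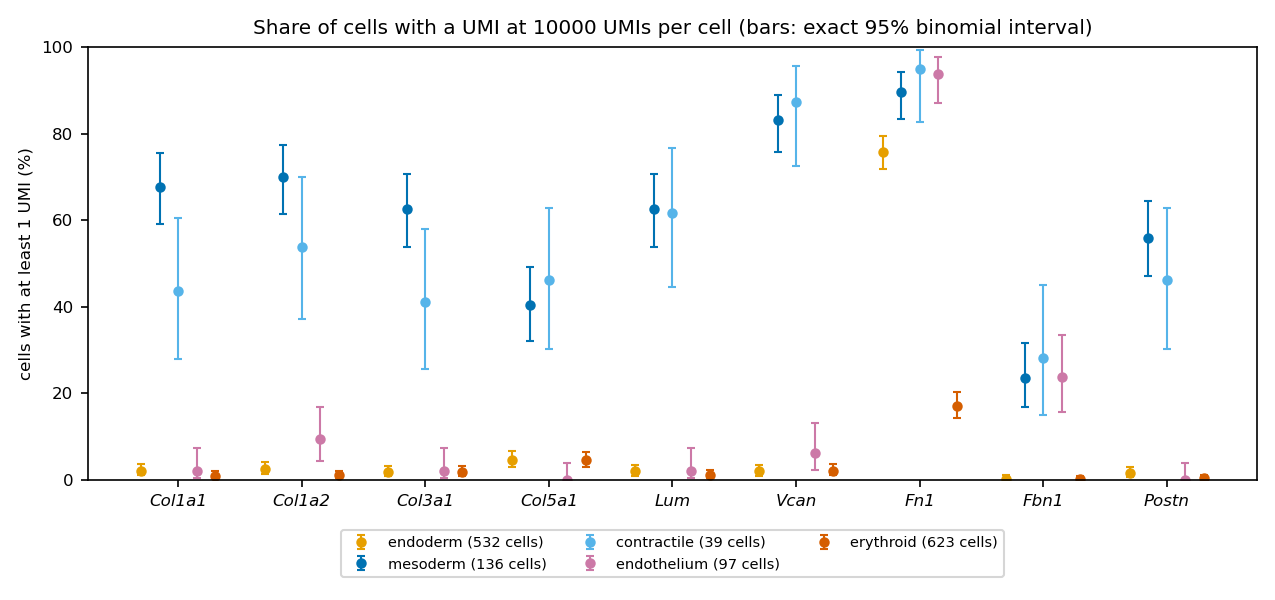
Share of cells with at least 1 UMI of each gene after thinning to 10000 UMIs per cell, in percent, for 5 classes, with exact 95% binomial intervals. The mesoderm and contractile points lie well above the erythroid points for each gene, and the endoderm share of Fn1 reads 75.8% and the endothelium share of Fbn1 23.7%.

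Single mesoderm cells held several members at once. Of the 8 members other than Fn1, the median thinned mesoderm cell held 5, and 9 of 136 cells held none. Col1a1, Col1a2 and Col3a1 were found together in 43.4% of mesoderm cells, 17.9% of contractile cells and 0.188% of endoderm cells. By tagged sample the mesoderm shares were 25.7, 51.0 and 48.0%. Across the 136 mesoderm cells the correlation of log2(thinned UMIs + 1) was 0.57 between Vcan and Fn1, 0.53 between Col3a1 and Lum, 0.51 between Col1a2 and Col3a1, and 0.49 between Col1a1 and Col1a2, as a description of cells that come from 3 tagged samples of 1 pooled library and were thinned to 1 depth. Within tagged samples 1, 2 and 3 the value for Col1a1 and Col1a2 was 0.46, 0.48 and 0.49, and that for Col3a1 and Lum 0.20, 0.56 and 0.39. Over the 136 cells, Fn1 also read 0.51 with Lum and 0.51 with Col1a2. There the pairs with Col5a1 lay between -0.02 and 0.21, and those with Fbn1 between -0.02 and 0.31. In 126 mesoderm cells left after dropping those with trophoblast or parietal endoderm markers, Vcan and Fn1 read 0.44 and Col3a1 and Lum 0.51. Col1a2 and Col3a1 read 0.46 there, and Col1a1 and Col1a2 0.43. In 39 contractile cells the value was 0.32 for Vcan and Fn1 and 0.43 for Col1a2 and Col3a1. It was 0.07 there both for Col3a1 and Lum and for Col1a1 and Col1a2.

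**Figure D4:**
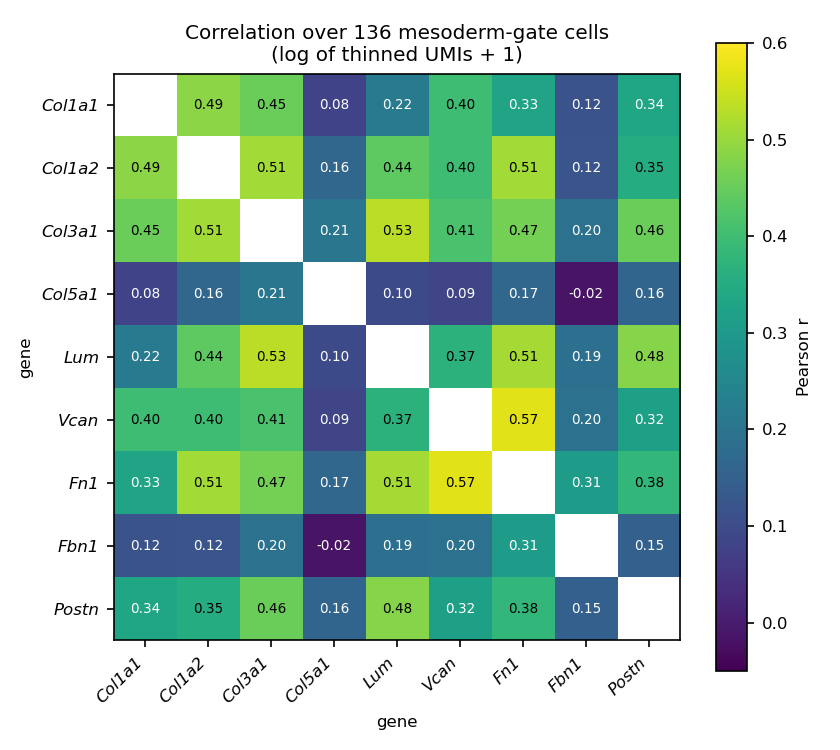
Pearson correlation of log2(thinned UMIs + 1) between each pair of members over 136 mesoderm-gate cells, coloured from low to high. The pair of Vcan and Fn1 reads 0.57, the row of Col5a1 reads at most 0.21 and that of Fbn1 at most 0.31.

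Tagged sample 1 had the lowest mesoderm level for all 9 members. Its distance from the other 2 was widest in relation to the mean for Lum, Col3a1 and Postn, and Vcan differed from tagged sample 2 by little (301 and 302). Col3a1 was found in 37.1, 70.6 and 72% of thinned mesoderm cells of tagged samples 1, 2 and 3, and Lum in 31.4, 74.5 and 72%. Of the check markers of other cell types, 4 of 6 for parietal endoderm and 4 of 8 for trophoblast (Ascl2, Tfap2c, Krt8 and Krt18) were highest in the mesoderm class, and 4 of 6 for maternal decidua were at 0 there. In the mesoderm class the trophoblast genes Ascl2 (25.6, 1.66 and 5.07 CPM) and Tfap2c (12.8, 3.88 and 3.38) were highest in tagged sample 1. Gcm1 read 0, 0 and 0.563, and Tpbpa 0 in each. The parietal endoderm genes Fst (3.56, 47.6 and 2.25) and Srgn (1.42, 22.7 and 0) were highest in tagged sample 2. Mesoderm-class cells with at least 2 UMIs of Tpbpa, Gcm1, Ascl2 and Tfap2c or 3 of Fst and Srgn were counted together. Tagged sample 1 had the most of these cells, 5 of 40 against 3 of 56 and 2 of 53. With such cells left out, Col3a1 read 80.4, 305 and 194 CPM, Lum 52.4, 303 and 197, and Postn 64.7, 180 and 108, so tagged sample 1 was still the lowest for these 3 genes.

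For 7 members, all but Fn1 and Col5a1, the low endoderm levels rested on few cells, and the 5 cells with most UMIs of a gene held 53.3 to 73.9% of them. Col5a1 was spread wider, with 147 UMIs in 117 of 560 endoderm cells and 12.9% of them in 5 cells. Of 743 endoderm UMIs of the 8 members other than Fn1, 54.0% were in 8 of 560 cells that each held 5 or more of those members. These 8 cells had a median of 112064 UMIs, against 56347.5 in the class, and all 8 were called doublets by Scrublet. In the erythroid class, 4 of 630 cells held 33.8% of 450 such UMIs, and all 4 were doublet calls. Without doublet calls, Vcan in endoderm read 1.62, 0.771 and 0.92 CPM and Postn 0.249, 0.771 and 0.345. For Col1a1, Col1a2, Col3a1, Lum and Fbn1 the mesoderm difference from endoderm was then between 6.51 and 7.61 on the log2 scale. It was 8.04 ± 0.17 (log2, SE) for Vcan (adjusted p = 3.15e-13, edgeR) and 7.55 ± 0.45 for Postn (adjusted p = 6.42e-09, edgeR). Fn1 moved little, to 1.60 ± 0.12, and Col5a1 to 3.12 ± 0.21.

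**Figure D5:**
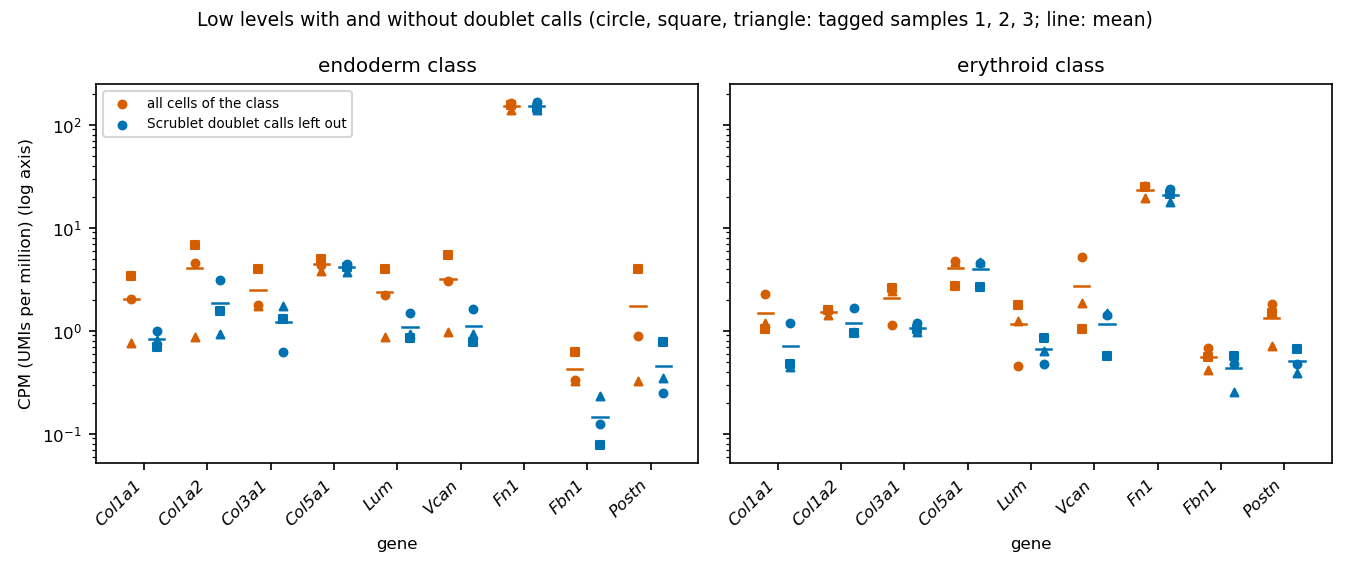
CPM on a log axis for the 9 genes in the endoderm and erythroid classes, with all cells and with Scrublet doublet calls left out, 1 point per tagged sample and a line at the mean. Without the calls Vcan in endoderm falls from a mean of 3.14 to 1.10, whereas Fn1 stays at 151.

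Other genes of the matrix were taken from 6 lists, chosen like the members with earlier results of these data known. Of 18 other collagens of fibrils and networks, 7 passed the filter against endoderm, and 6 were higher in mesoderm and none lower (median log2 difference 4.65, all genes -0.03). Among all 10777 genes tested there, 3172 (29.4%) were higher and 3452 lower. Col5a2, the partner chain of Col5a1, had 84.8, 155 and 144 CPM in mesoderm and 1.45, 3.30 and 0.327 in endoderm, a difference of 5.84 ± 0.37 (SE; adjusted p = 2.80e-08, edgeR). Col11a1, a chain of type XI collagen, had 8.55, 17.7 and 18.6 in mesoderm and differed by 5.49 ± 0.52. A filter on low counts keeps genes that are high in 1 class, so the counts describe only the genes that passed.

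Among 36 genes of collagen processing, 28 were tested, and 16 were higher and 4 lower in mesoderm than in endoderm (median 1.48). All 10777 genes tested gave 3172 higher (29.4%) and 3452 lower. Pcolce, which enhances the removal of the procollagen C-propeptide, differed by 6.22 ± 0.30 (log2, SE), Fkbp10, a collagen chaperone, by 5.33 ± 0.29, and Loxl1, a cross-linking oxidase, by 4.88 ± 0.30. Crtap, a subunit of the prolyl 3-hydroxylation complex, was lower by -0.73 ± 0.14 (adjusted p = 0.000492, edgeR), with 37.0, 51.0 and 42.3 CPM in mesoderm and 57.6, 66.0 and 64.1 in endoderm. P4hb, which encodes protein disulfide isomerase and is also a subunit of prolyl 4-hydroxylase, and Plod3, a lysyl hydroxylase, differed by -0.24 ± 0.07 and -0.51 ± 0.17, with adjusted p of 0.00909 and 0.0184, but scaled by library size alone they differed by -0.03 and -0.29 with adjusted p of 0.711 and 0.128, all in edgeR. Against endothelium, Fkbp10 differed by 0.35 ± 0.23 and missed the threshold (adjusted p = 0.269, edgeR).

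Most tested proteoglycan genes were higher in mesoderm than in endoderm, with 2 exceptions. Of 28 genes, 14 were tested, 11 were higher and 2 lower in mesoderm (median 3.67), where 29.4% of all 10777 genes tested were higher. The syndecans Sdc2 and Sdc1, membrane heparan sulfate proteoglycans, differed by 5.37 ± 0.20 and 4.78 ± 0.18 (log2, SE). Sdc4 went the other way at -2.54 ± 0.11 (adjusted p = 6.73e-10, edgeR), with 47.7, 37.1 and 46.2 CPM in mesoderm and 220, 214 and 221 in endoderm. Gpc3, a glypican, was also lower, at -1.41 ± 0.09, with 209, 228 and 249 against 589, 501 and 491.

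Of 31 genes of elastic fibres and glycoproteins, 16 were tested, 11 were higher and 1 lower (median 2.43). The share of all 10777 genes tested that were higher in mesoderm than in endoderm was 29.4%. Fbn2, the second fibrillin, had a pattern like that of Fbn1, with 35.6, 47.1 and 40.0 CPM in mesoderm, 58.8, 51.5 and 33.6 in endothelium and 0.895, 0.687 and 0.218 in endoderm. Its difference from endoderm was 5.81 ± 0.29 (log2, SE; adjusted p = 3.35e-09, edgeR) and from endothelium -0.34 ± 0.20 (adjusted p = 0.225, edgeR). Frem1 and Ltbp1 differed from endoderm by 6.08 ± 0.28 and 5.08 ± 0.41. Emilin1 differed by -0.67 ± 0.20 (adjusted p = 0.011, edgeR), and by -0.46 (adjusted p = 0.0779) scaled by library size alone.

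Of 20 matrix receptors, 13 were tested, 12 were higher in mesoderm than in endoderm and none lower (median 2.10). Among all 10777 genes tested against endoderm, 29.4% were higher. Itgb1, the common beta subunit of the collagen and fibronectin integrins, had 448, 475 and 454 CPM in mesoderm, 399, 472 and 442 in endothelium and 178, 181 and 181 in endoderm, a difference of 1.14 ± 0.08 (log2, SE; adjusted p = 4.43e-08, edgeR) from endoderm. Of 25 matrix proteases and inhibitors, 14 were tested, 11 were higher and 1 lower (median 3.95). Mmp2, a gelatinase, differed from endoderm by 5.32 ± 0.32, its inhibitor Timp2 by 5.63 ± 0.18 and Adamts9, a versican-cleaving protease, by 6.12 ± 0.30. Against endothelium instead of endoderm, 13 of 25 tested processing genes were higher and 3 lower in mesoderm (median 0.46). Among all 8585 genes tested there, 1356 (15.8%) were higher and 1634 lower. Of 12 proteoglycans 8 were higher and 1 lower, and of 12 receptors 6 and 4. Of 10 proteases and inhibitors 4 were higher and 5 lower (median -0.53, all genes 0.00). In the same comparison with endothelium, the other collagens had 3 higher and 1 lower of 4, and the elastic fibre list 5 and 1 of 9. Against endoderm, Timp3 was lower by -1.23 ± 0.38 (adjusted p = 0.0136, edgeR) and was highest in endothelium, at 82.0, 143 and 117 CPM.

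Likeness to the members was measured by Pearson's r of log2(CPM + 1) over the 15 sums of 5 classes and 3 tagged samples, among 6955 genes with a mean of at least 20 in 1 class or more, as a description of sums that share their libraries. Igfbp2 (0.993), Acta2 (0.992), Pcdh18 (0.990), Col5a2 (0.990) and Ptgfrn (0.989) were most like the mean profile of the members. For Col1a1 the nearest genes were Mme (0.988) and Cdh11 (0.985), for Col1a2 Cd248 (0.985) and Tagln (0.981), and for Col3a1 Cysltr1 (0.990) and Cxcl12 (0.985). Crb2 (0.981) and Fzd2 (0.979) were nearest to Col5a1, Ptn (0.991) and Cysltr1 (0.986) to Lum, Igfbp2 (0.991) and Acta2 (0.990) to Vcan, and Bnc2 (0.984) and Cysltr1 (0.983) to Postn. Fn1 and Fbn1 had neighbours that were also present in endothelium: Zfp36l1 (0.992) and Nrp2 (0.992) for Fn1, and Hoxb2 (0.988) and Aplnr (0.983) for Fbn1.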

How the data were processed

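The gene expression and tag libraries come from 1 pool of tagged yolk sac cells. The authors deposited UMI counts per gene and cell, 1 matrix per tagged sample, not normalized, and the file headers name Cell Ranger 6.1.2 as the writer, with builds GRCm38 and mm10 per the submitters' processing notes. The step that gave each cell its tag is unknown here. Mitochondrial and gene-number filters and gates are in the report, and doublets were kept in the main values, with Scrublet (scanpy 1.11.5) calls of 21, 30 and 38 cells left out as an alternative. Median depth was 46849.5, 47786 and 45539 UMIs per cell.

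The counts of all cells of a class in a tagged sample were added up, and 2 classes were fitted at a time with edgeR 4.0.16 (R 4.3.3): filterByExpr, trimmed mean of M-values scaling, glmQLFit and glmQLFTest, two-sided, with gate genes left out and Benjamini-Hochberg adjustment over all genes tested at 0.05. The SE is the log2 difference over the square root of F. Precision is limited by 3 sums a class. Same-numbered sums come from the same tagged sample, so the numbers pair them. For mesoderm and endoderm the correlation of their deviations, taken across genes that are not independent, was 0.090, 0.093 and 0.00092. Over all comparisons it ran from -0.066 (contractile and mesoderm, tagged sample 2) to 0.144 (mesoderm and endothelium, tagged sample 1). The tests were tested on simulated data.

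The named genes were the 9 members, and in each matrix list the 3 with the smallest p between mesoderm and endoderm and up to 3 called the other way. Likeness named the 5 genes nearest to the members' mean and 2 nearest to each member. Members and lists were chosen with earlier results of these data known. Alternatives covered other scalings, DESeq2 1.42.0, no low-count filter, the block, all 5 classes in 1 fit, thinning, other cell filters and gates, doublet calls and each tagged sample left out. Leaving out mesoderm cells with other-cell markers, or other classes' cells with at least 0.01% of mesoderm gate genes, was chosen after seeing the data.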

Additional observations from a re-analysis of the deposited data

Results flagged for a closer look

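Cells outside the 5 classes also held UMIs of the members. The 199 cells in no class held 759 UMIs of the 9 members, of which 453 were Fn1 and 111 Vcan. The 50 cells in more than 1 class held 1603, of which 732 were Fn1 and 246 Vcan, at a median depth of 74550 UMIs per cell. These cells entered no comparison.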

How the results depend on the processing

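Directions were kept for every member and alternative except 4 values, none past the threshold. Without tagged sample 1, Fbn1 turned to 0.72 in mesoderm against endothelium (range with 1 tagged sample left out -0.64 to 0.72) and Col1a1 to -0.34 in endothelium against endoderm (-0.34 to 0.69). Without tagged sample 2, Lum turned to 0.32 in the contractile class against mesoderm (-0.77 to 0.32) and to 0.56 in endothelium against endoderm (-2.37 to 0.56). Without tagged sample 3, Lum was called lower in endothelium than in endoderm at -2.37 (adjusted p = 0.04, edgeR). No call of a member was lost under any alternative in which it was tested. In the contractile class against mesoderm, 3 members were called without the low-count filter, 2 with the replicate block, 1 after thinning to 10000 UMIs, and 0 to 2 with 1 tagged sample left out (2 without tagged sample 1).

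Genes called between contractile and mesoderm were 20, against 147 without the filter, 36 with the replicate block, 9 with all 5 classes in 1 fit, 5 after thinning and 12 to 28 with 1 tagged sample left out (12 without tagged sample 3). Thinning gave 3943 genes against endoderm, 1300 against endothelium, 3669 against erythroid cells and 3644 for endothelium against endoderm, where fewer genes were tested. With 1 tagged sample left out, 1993 to 3040 genes were called between mesoderm and endothelium, 1993 without tagged sample 3. The replicate block changed no call of a member other than those given in the report. The causes were not tested. Low levels rest on few UMIs, such as 15 of Fbn1 in endoderm and 6 of Postn in endothelium, and the contractile class rests on 39 cells.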

Other observations

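In no class were 2 cells with at least 100 UMIs of Ttn, Myh6 and Tnnt2, genes of the heart muscle sarcomere. They held 49 UMIs of Vcan, 7 of Fn1 and 4 of Col5a1 among 118325, and 0 of Col1a1, Col1a2, Col3a1, Lum, Fbn1 and Postn, where a count of 0 allows up to 3 UMIs.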
